A study of Mus musculus with 2 samples.

Results

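Cycling T cells are T lymphocytes caught with transcripts of the division machinery. Here they were the kidney leukocytes with at least 1 unique molecular identifier (UMI, the tag of 1 captured RNA molecule) of Cd3d, Cd3e or Cd3g, at least 1 of Mki67, at least 1 of Top2a, and fewer than 10 C1qa UMIs per 10000. Of 6601 cells that passed the filters (at least 500 UMIs, at least 200 genes, at most 10% mitochondrial UMIs), 167 met this rule, 128 in hashed sample 1 and 39 in hashed sample 2. They were set against 1028 T cells of the same Cd3 and C1qa rule without any Mki67 or Top2a UMI, 663 and 365 in the same order, called comparison T cells from here on. A further 242 T cells, 165 and 77, had UMIs of 1 of the 2 genes and belonged to neither class. The cells were chosen by their counts of Cd3, Mki67, Top2a and C1qa UMIs, and every gene of these cells counts as used by that choice, so the values below describe the cells and no p-value is given.

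The kidneys belonged to B6 mice given the AAN CKD model, with week 2 as the labelled time; in this model aristolochic acid, a plant toxin, injures the tubules and leaves chronic disease. Viable cells stained for CD45, which nearly all leukocytes carry, were sorted from Liberase-digested tissue and sequenced with the 3' Chromium chemistry. The sample's title also names week 1 and a single mouse, and its cell type label names mesenchymal stem cells, whereas the cells described below carry T cell or macrophage transcripts. Both hashed samples share the labelled genotype and disease, and no healthy kidney was analysed here. Hashed samples 1 and 2 are the cells marked by 2 antibody-borne barcodes (hashtags) in 1 GEO sample. They were captured and sequenced as 1 library, and the labels do not say whether they are separate animals, so agreement between them shows the spread of cells and hashing but not of mice. Both matrices are named for week 2, hashed sample 1 with m1 and hashed sample 2 with m2, which the labels do not explain. The title ties week 1 to neither. A difference between the hashed samples therefore cannot be told apart from one of animal, and the title leaves the week unsure. The matrices held 7015 barcodes, none shared between the hashed samples.

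A T cell that leaves rest first loads the MCM helicase on its origins of replication, copies its DNA with the polymerase, clamp and nucleotide enzymes of S phase, and then builds the spindle, kinetochores and mitotic kinases that part the chromosomes. Mki67 encodes the Ki-67 protein that coats mitotic chromosomes, and Top2a the topoisomerase that untangles them. In inflamed kidney, T cells can arrive from blood or divide in place, and transcripts of 1 time point do not separate these routes.

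Transcripts of the alpha-beta T cell receptor, which the rule did not use, were found in nearly all cells of both classes. A UMI of Trac, Trbc1 or Trbc2, the constant parts of that receptor, was found in 128 of 128 and 37 of 39 cycling T cells, against 627 of 663 and 342 of 365 comparison T cells. Trdc, the constant part of the delta chain, was at 1.27 and 0 CPM (UMIs summed over the cells of a class and scaled to 1000000 in all) in cycling T cells, against 6.33 and 22.0 CPM in comparison T cells. None of the 11 genes of the gamma-delta and innate-like T cell list reached the level needed for a call, 50 CPM in 1 class of each hashed sample.

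Cycling T cells were large in RNA. Their median was 11235.5 and 11049 UMIs per cell, against 3482 and 3286 in comparison T cells, and 11889.5 and 12141 in cycling macrophages (Mki67 and Top2a UMIs, no Cd3 UMI, at least 10 C1qa UMIs per 10000; 32 and 133 cells). Their median number of genes was 3077 and 3010, against 1378 and 1309. A deeper cell is more likely to show a UMI of any gene, Mki67 and Top2a included. The part of depth in the results was not tested as such, and values at matched or thinned depth are given beside them.

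Of all T cells of the Cd3 and C1qa rule, 13.4% (128 of 956; exact binomial 95% interval 11.3 to 15.7) were cycling in hashed sample 1. In hashed sample 2 the share was 8.11% (39 of 481; 5.83 to 10.9). These intervals, and all others here, cover counting error only. With every cell thinned to 2000 UMIs and the rule applied to the thinned counts, the shares were 8.27% and 3.92%, so hashed sample 1 stayed above hashed sample 2. Macrophages (no Cd3 UMI, at least 10 C1qa UMIs per 10000) had the reverse order of the hashed samples. Their cycling share was 2.35% (32 of 1363) and 6.48% (133 of 2053), and 0.549% and 3.28% after thinning. Among all kept cells, cycling T cells made up 4.11% in hashed sample 1 and 1.12% in hashed sample 2.

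The cycling share climbed with the UMIs of the cell. Between 2000 and 4000 UMIs it was 1.64% (7 of 427) and 0.778% (2 of 257), and between 4000 and 8000 it was 10.0% (31 of 309) and 5.98% (7 of 117). Between 8000 and 16000 UMIs it was 46.2% (55 of 119) and 36.8% (21 of 57). At 16000 UMIs or more, 33 of 38 and 9 of 9 T cells were cycling, so nearly all of the T cells with the most RNA belonged to the class.

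**Figure D1:**
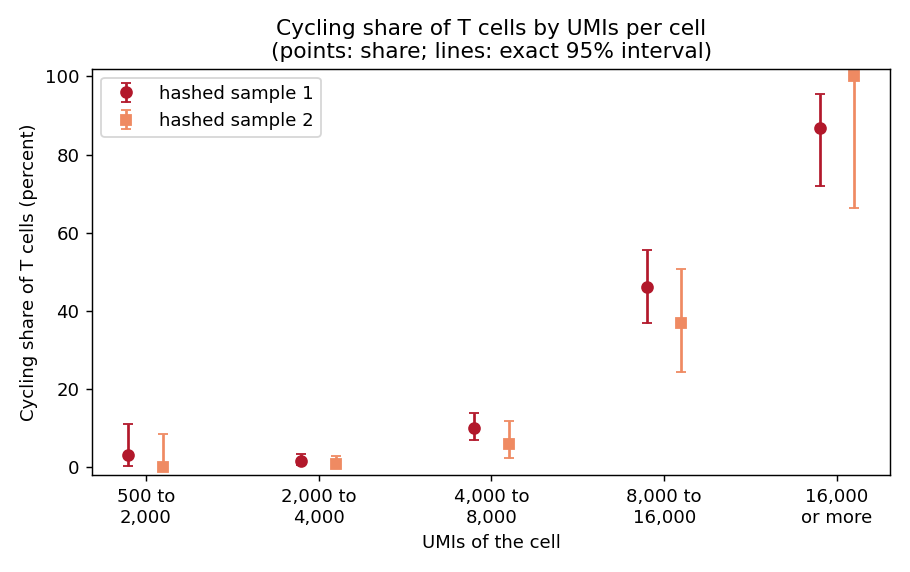
Share of T cells that were cycling (percent, vertical axis) by the number of UMIs of the cell (horizontal axis), with hashed sample 1 as circles and hashed sample 2 as squares; lines are exact 95% intervals. Below 4000 UMIs both shares stay under 5%, and at 16000 or more they reach 86.8% and 100%.

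Individual cycling T cells ranged from replication to mitosis. Per 10000 UMIs, the median cell held 45.5 and 45.9 UMIs of 36 replication genes, against 6.89 and 7.37 in comparison T cells. It held 59.7 and 24.2 UMIs of 45 mitosis genes, against 2.89 and 2.40. For the 14 replication histones, whose transcripts pile up while DNA is copied, the medians were 33.8 and 3.61, against 0 and 0. In 71 of 128 cycling T cells of hashed sample 1 (55.5%; 46.4 to 64.3) and 18 of 39 of hashed sample 2 (46.2%; 30.1 to 62.8) mitosis UMIs outnumbered replication UMIs. The mitosis part of the 2 sets lay between 40 and 60% in 28 of 128 and 1 of 39 cells, so the line was crowded in hashed sample 1 and a count on either side of it marks a range and not a type. The median mitosis part was 53.4% in hashed sample 1 and 30.3% in hashed sample 2.

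**Figure D2:**
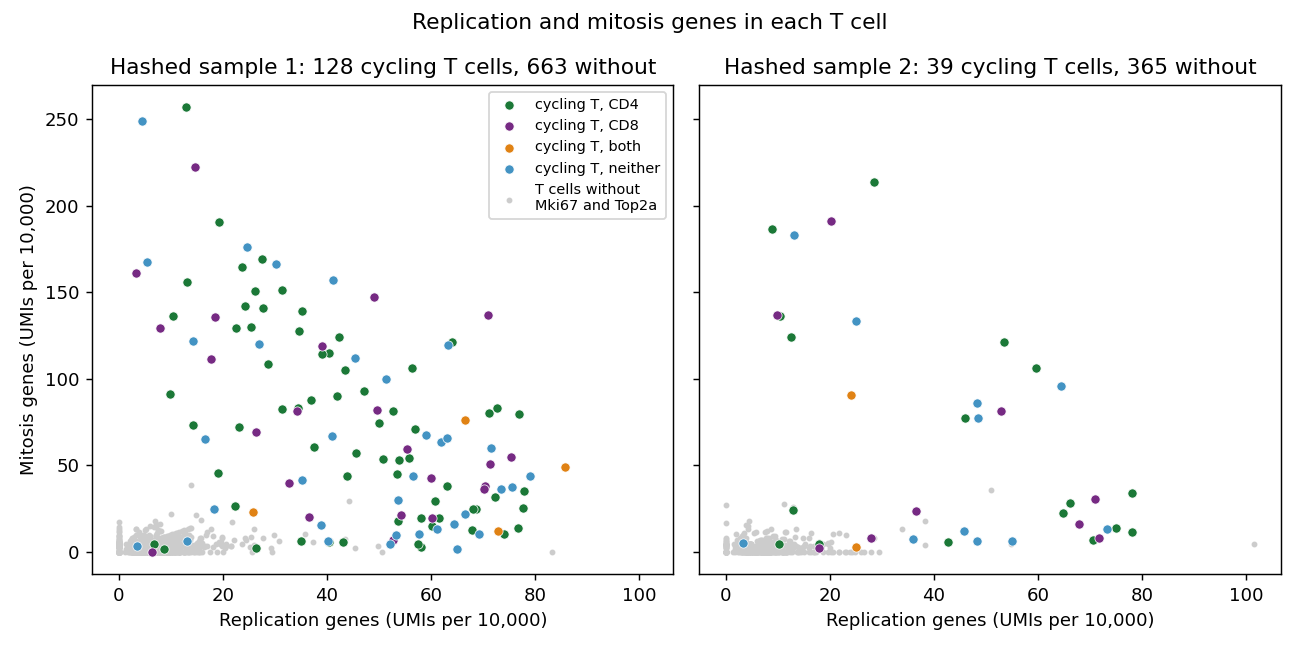
Each point is 1 T cell: UMIs of replication genes per 10000 (horizontal axis) and of mitosis genes per 10000 (vertical axis), in hashed sample 1 (left) and 2 (right). Large points are cycling T cells coloured by Cd4 and Cd8 UMIs and small grey points are comparison T cells, which crowd near the origin; the cycling median is 45.5 and 45.9 for replication against 6.89 and 7.37.

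Few comparison T cells reached the median replication and mitosis level of cycling cells. Comparison T cells were taken without Mki67 and Top2a UMIs, so part of this was set in advance. Single cells overlapped: replication UMIs per 10000 went up to 83.3 and 101 in comparison T cells and down to 3.36 and 3.28 in cycling ones. The median cycling T cell had 112 and 89.7 replication and mitosis UMIs per 10000, and a comparison T cell reached that level in 0 of 663 cases in hashed sample 1 (a count of 0 allows up to 0.452%) and in 1 of 365 in hashed sample 2. Of the T cells with UMIs of only Mki67 or only Top2a, 1 of 165 and 1 of 77 reached it. Just inside the rule, the 7 and 4 cells with exactly 1 Mki67 and 1 Top2a UMI had median replication levels of 14.2 and 15.4 per 10000. Just outside it, cells with Mki67 alone had 9.46 and 6.63, and cells with Top2a alone had 6.57 and 9.17. On the C1qa side, 1 and 1 cycling T cells had 5 to under 10 C1qa UMIs per 10000, and 8 and 9 cells with Cd3, Mki67 and Top2a UMIs were left out for having 10 or more. On the Cd3 side, 9 and 3 cycling T cells had 1 to 3 Cd3 UMIs.

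Across all genes, UMIs were summed over the cells of a class in each hashed sample and scaled to CPM. A gene was called higher or lower when its ratio, with 10 CPM added to both classes, was at least 1.5-fold in the same direction in both hashed samples, among genes with at least 50 CPM in 1 class of each. Of 2961 genes with that level, 483 (16.3%) were higher in cycling T cells and 269 (9.08%) lower. The cells were chosen in the same comparison, so nothing is read from these shares. The median log2 ratio over the 2961 genes was 0.07 and 0.10. Against the 107 and 33 comparison T cells whose UMI totals lay between the 10th and 90th percentile of the cycling cells (median 7266 and 9193 UMIs, called depth-matched below), 350 of 2881 genes (12.1%) were higher and 197 (6.84%) lower. These held 313 of the 483 higher genes and 81 of the 269 lower ones. Most lower genes described below are therefore given with their depth-matched values. The match was partial, since cycling T cells had medians of 11235.5 and 11049 UMIs. A gap in depth thus remained, the wider one in hashed sample 1.

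Genes that copy DNA were higher together. All 8 replication licensing genes with enough counts were called higher (median log2 ratio 2.01 and 2.07), as were all 10 of the replication fork (2.04 and 2.09) and all 9 of nucleotide supply (2.16 and 2.32). Mcm5, a subunit of the replicative helicase, had 121 and 146 CPM in cycling T cells, against 15.3 and 16.9 CPM in comparison T cells, a ratio of 7.93 (5.63 to 11.4, exact interval) and 8.67 (5.37 to 14.5). Rrm2, the subunit of ribonucleotide reductase that limits the supply of deoxynucleotides, had 153 and 146 CPM, against 3.72 and 2.94 CPM. Pcna, the sliding clamp of the DNA polymerases, had 260 and 267 CPM, against 57.0 and 63.9 CPM. For all 3 genes both cycling values exceeded both comparison values. Clspn, the adaptor of the replication checkpoint kinase, stood at 172 and 113 CPM, against 4.84 and 2.20 CPM. Pclaf, a small protein that binds the clamp, had 566 and 498 CPM, against 13.03 and 13.2 CPM, or 43.5-fold (31.0 to 62.8) and 37.7-fold (23.4 to 64.7). All 4 DNA repair genes that reached the level for a call were higher.

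Histones and chromatin proteins were higher too. Of the replication histones 11 of 11 measured genes were higher, and their median log2 ratio was 3.03 and 3.21. Hist1h1b, a linker histone, reached 1642 and 1183 CPM, against 17.9 and 19.1 CPM, which is 91.9-fold (69.1 to 125) and 62.0-fold (41.9 to 95.7). In hashed sample 2, 1 cell gave 28.6% of its UMIs. Transcripts of this kind mostly lack a poly(A) tail, so a chemistry primed on poly(A) captures an unknown part of them. Of the chromatin packing list 14 of 14 were higher, including Hmgb2, a DNA-bending protein, at 3068 and 2746 CPM against 400 and 412 CPM, and the condensin subunit Smc2 at 354 and 342 CPM against 23.1 and 36.0 CPM. Copies of histone genes resemble each other, so single histone values are less certain than the list.

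Mitotic lists had larger median ratios than the licensing, fork and nucleotide supply lists. The replication histones, with medians of 3.03 and 3.21, lay among the mitotic lists in hashed sample 2. The rule asks for Mki67 and Top2a, which act on mitotic chromosomes, and its part in this order was not tested. All 7 measured centromere and kinetochore genes (median log2 ratio 3.75 and 3.14), all 13 spindle and cytokinesis genes (3.24 and 2.95) and 9 of 10 mitotic kinase and anaphase-promoting complex genes (3.33 and 3.23) were higher. Cenpf, a kinetochore and nuclear matrix protein, had 353 and 380 CPM, against 4.10 and 2.94 CPM. Birc5, survivin of the chromosomal passenger complex, had 494 and 328 CPM, against 10.8 and 15.4 CPM, or 45.8-fold (31.6 to 68.8) and 21.3-fold (13.5 to 35.3). Ube2c, the ubiquitin-conjugating enzyme of the anaphase-promoting complex, had 412 and 522 CPM, against 24.95 and 20.6 CPM. Hmmr, which helps to focus spindle poles, had 129 and 129 CPM, and no UMI in the 663 and 365 comparison T cells. With 3 counts per hashed sample, the most that a count of 0 allows, set in place of the 0, the Hmmr ratio was 116 and 58.4. These 2 values leave out the counting error of the cycling cells. Pttg1, securin, was the exception among the mitotic kinases and their partners at 53.2 and 35.6 CPM, against 44.7 and 54.3 CPM. Against depth-matched cells the counts for licensing, fork, nucleotide supply, repair, kinetochore, spindle and chromatin packing were unchanged, with all measured genes higher, and 9 of 9 mitotic kinase genes and 11 of 12 histones were higher.

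Promoters of some of these genes are printed to show the short cell cycle motifs they carry. RefSeq promoters (GRCm38.p6, 250 bases before to 50 after the start) were searched on both strands for the CHR (TTTGAA, the cell cycle genes homology region bound by DREAM and B-MYB complexes), the CCAAT box (CCAAT, bound by NF-Y) and E2F sites (TTTGGCGC, TTTCGCGC, TTTCCCGC or TTTGCCGC). Of 30 measured genes of the mitotic kinase, kinetochore and spindle lists, 26 had a promoter in the table, and 20 of these (76.9%) held a CHR. Of 27 measured licensing, fork and nucleotide genes, 23 had one, and 3 held a CHR. Over all 27025 promoters the share was 20.2%, and over the 2363 promoters of genes with enough counts it was 15.0%. E2F sites ran the other way, in 0 of 26 mitosis and 9 of 23 replication promoters (39.1%), with 2.60% of all promoters and 6.47% of those of genes with enough counts. By list, they were in 4 of 5 licensing and 5 of 10 fork promoters, but in 0 of 8 of nucleotide supply. The CCAAT box was in 73.1% and 73.9%, with 41.1% of all. E2F matches on opposite strands can overlap, as in Mcm5 and Mcm6. A match is a string of letters and not a bound site. Below are the 160 bases before the start, 5′ to 3′ on the strand of the gene, for mitosis genes (Cdc20, Ube2c and Kif11), for Cdk1, and for replication genes (Mcm5 and Mcm6), with motif matches on either strand in capitals.
Cdc20 (activator of the anaphase-promoting complex; chr4:118437344-118437503, minus strand): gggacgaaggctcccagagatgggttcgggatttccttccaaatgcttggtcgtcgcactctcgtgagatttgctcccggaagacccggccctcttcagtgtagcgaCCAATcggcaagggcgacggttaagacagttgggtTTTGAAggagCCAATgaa
Ube2c (chr2:164769769-164769928, plus strand): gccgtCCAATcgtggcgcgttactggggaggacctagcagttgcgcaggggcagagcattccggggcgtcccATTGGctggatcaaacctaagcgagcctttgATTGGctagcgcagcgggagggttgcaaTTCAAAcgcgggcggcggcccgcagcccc
Kif11 (a spindle motor; chr19:37376222-37376381, plus strand): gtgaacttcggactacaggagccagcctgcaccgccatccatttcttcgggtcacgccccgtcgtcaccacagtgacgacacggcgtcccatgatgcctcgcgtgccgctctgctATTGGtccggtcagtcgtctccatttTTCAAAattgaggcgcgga
Cdk1 (the mitotic kinase; chr10:69352913-69353072, minus strand): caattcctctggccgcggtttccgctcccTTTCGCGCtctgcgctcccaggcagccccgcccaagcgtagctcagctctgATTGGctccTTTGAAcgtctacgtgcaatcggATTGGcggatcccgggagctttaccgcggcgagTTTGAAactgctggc
Mcm5 (chr8:75109349-75109508, plus strand): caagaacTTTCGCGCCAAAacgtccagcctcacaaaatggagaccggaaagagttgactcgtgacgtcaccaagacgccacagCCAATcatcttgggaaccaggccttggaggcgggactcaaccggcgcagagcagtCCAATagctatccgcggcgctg
Mcm6 (another helicase subunit; chr1:128359706-128359865, minus strand): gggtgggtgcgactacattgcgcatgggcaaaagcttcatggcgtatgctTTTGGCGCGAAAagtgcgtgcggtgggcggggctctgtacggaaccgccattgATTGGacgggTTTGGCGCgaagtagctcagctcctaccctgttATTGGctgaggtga
In the lines above, the CHR of Cdc20, Ube2c and Kif11 and the nearer of the 2 in Cdk1 have their first letter 18, 29, 19 and 15 bases before the start. Cdk1 carries all 3 kinds of motif, and its E2F match begins 131 bases before the start. Cdc20 had 134 and 131 CPM in cycling T cells, against 4.84 and 2.20 CPM in comparison T cells. Mcm6 had 159 and 156 CPM, against 36.5 and 37.4 CPM, and Cdk1 had 175 and 164 CPM, against 9.31 and 4.405 CPM.

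Cyclins of different phases differed in direction. Of 8 measured cyclins and CDKs, 5 were higher and 2 lower. Ccna2, the cyclin of S phase and G2, had 134 and 119 CPM in cycling T cells, against 1.12 and 2.94 CPM in comparison T cells, and Ccnb1, the mitotic cyclin, had 139 and 129 CPM, against 4.84 and 3.67 CPM. The D-type cyclins of G1 went the other way. Ccnd2 had 174 and 283 CPM, against 362 and 440 CPM, and Ccnd3 had 107 and 123 CPM, against 214 and 193 CPM. Neither D-type cyclin stayed lower in both hashed samples against depth-matched cells, where Ccnd2 was at 405 and 287 CPM and Ccnd3 at 181 and 95.8 CPM. Cdk6, their partner, was at 110 and 127 CPM, against 98.7 and 105 CPM, which was no call. The E-type cyclins of the step into S phase missed the level for a call. Ccne1 had 38.0 and 65.3 CPM in cycling T cells, against 6.33 and 6.61 CPM in comparison T cells, and Ccne2 had 15.8 and 21.8 CPM, against 1.86 and 4.405 CPM.

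Several brakes of division were lower. Of 10 measured genes of the cell cycle brakes and quiescence list, 6 were lower and none higher, and 3 stayed lower against depth-matched cells. Over all genes the lower shares were 9.08% and, depth-matched, 6.84%. Btg1, an antiproliferative factor that keeps naive T cells at rest by RNA decay, had 234 and 229 CPM in cycling T cells, against 800 and 949 CPM in comparison T cells and 575 and 533 CPM in depth-matched ones. Btg2, its relative, had 222 and 164 CPM, against 592 and 620 CPM and, depth-matched, 435 and 571 CPM. Klf2, the factor that keeps T cells resting and able to leave tissue, had 62.1 and 27.7 CPM, against 120 and 182 CPM, but 58.5 and 89.4 CPM in depth-matched cells, so it was no longer lower in hashed sample 1. The inhibitor Cdkn1b was at 81.7 and 91.0 CPM, against 156 and 120 CPM, which missed the call. None of 4 measured p53 targets was called, with Bax at 196 and 210 CPM against 174 and 178 CPM.

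Bcl2, which blocks mitochondrial cell death, was lower. It had 45.0 and 49.5 CPM in cycling T cells, against 391 and 532 CPM in comparison T cells, a ratio of 0.115 (0.0891 to 0.146) and 0.0930 (0.0598 to 0.138). Depth-matched cells had 138 and 147 CPM, above both cycling values, though well below the shallow cells. In cells thinned to 2000 UMIs, 10.3% and 15.4% of cycling T cells had a Bcl2 UMI, against 44.3% and 56.2% of comparison T cells. Thinned macrophages had one in 6.18% and 6.63% of cells. Of 6 measured apoptosis genes, Mcl1, another survival protein, was lower at 186 and 180 CPM against 334 and 324 CPM. Depth-matched cells had 317 and 389 CPM. Bcl2l11, the death inducer Bim, was lower at 44.4 and 15.8 CPM against 108 and 69.8 CPM, but with 59.7 and 41.5 CPM in depth-matched cells it was no call there.

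**Figure D3:**
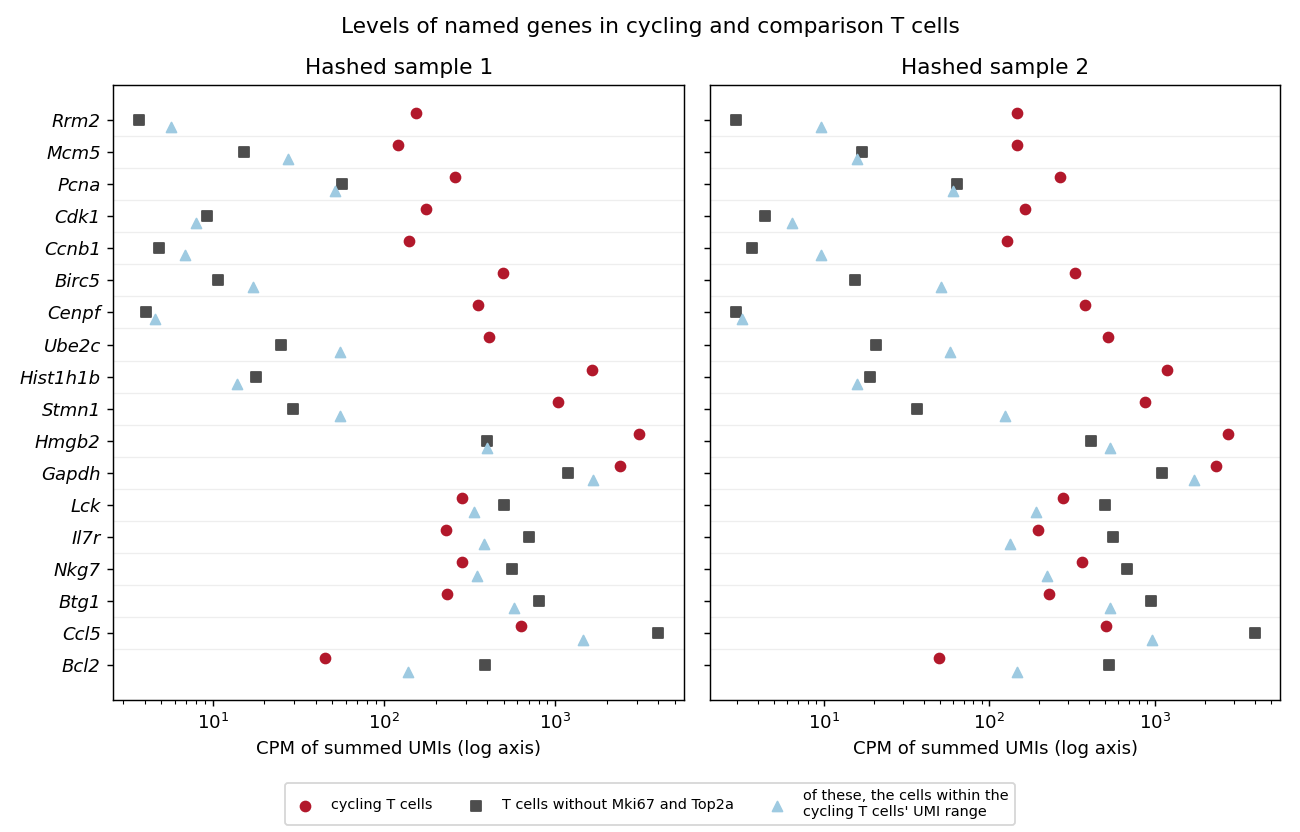
Level of 18 named genes in CPM of summed UMIs (horizontal log axis) in hashed sample 1 (left) and 2 (right): cycling T cells (circles), comparison T cells (squares) and the comparison cells within the cycling cells' UMI range (triangles). From Rrm2 to Hmgb2 the triangles lie far left of the circles, while for Lck, Il7r and Nkg7 they lie right of the circles in hashed sample 1 and left of them in hashed sample 2; for Btg1, Ccl5 and Bcl2 they lie between circles and squares.

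Most genes of receptor signalling were called neither way. Of 15 TCR signalling genes, 0 were higher and 2 lower, with a median log2 ratio of -0.13 and -0.13. Lat, the scaffold below the receptor, had 328 and 311 CPM in cycling T cells, against 292 and 269 CPM in comparison T cells. Lck, the kinase that starts the signal, had 284 and 279 CPM, against 504 and 499 CPM, but 336 and 192 CPM in depth-matched cells, which lie on both sides of the cycling values. None of 3 measured checkpoint receptors was called. Pdcd1, which encodes PD-1, had 95.7 and 63.3 CPM, against 99.0 and 55.8 CPM, and Ctla4 had 134 and 162 CPM, against 128 and 73.4 CPM. Tcf7, a factor of naive and stem-like T cells, had 77.9 and 96.9 CPM, against 97.2 and 107 CPM. Il7r, the receptor for the survival cytokine IL-7, was lower at 230 and 198 CPM, against 707 and 562 CPM, while depth-matched cells had 383 and 134 CPM, higher in 1 hashed sample and lower in the other.

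Of 8 measured cytotoxic granule genes, 5 were lower and none higher against all comparison T cells, beside 9.08% lower among all genes. Against depth-matched cells 0 of 3 measured genes were lower. With 6.84% of all genes lower there, a count of 0 in 3 says little. Nkg7, a granule membrane protein, had 287 and 362 CPM in cycling T cells, against 563 and 674 CPM in comparison T cells and 349 and 223 CPM in depth-matched cells. Klrd1, the CD94 receptor of cytotoxic cells, had 10.8 and 11.9 CPM, against 74.8 and 119 CPM, next to 28.7 and 67.0 CPM when depth-matched, where it missed the level for a call. Ccl5, the chemokine RANTES stored by effector T cells, was lower in both comparisons. It had 630 and 506 CPM, against 3990 and 4000 CPM, next to 1457 and 958 CPM when depth-matched. Its ratio to all comparison T cells was 0.158 (0.148 to 0.168) and 0.127 (0.111 to 0.144). After thinning, 52.4% and 41.0% of cycling T cells had a Ccl5 UMI, against 83.3% and 79.0% of comparison T cells, and 8.65% and 3.02% of macrophages. Ccl1 and Xcl1 were called higher over all T cells, but not in CD4 cells, where the hashed samples went opposite ways. Ccl1, the ligand of CCR8, had 352 and 477 CPM, against 67.4 and 138 CPM, but 1 cell gave 46.8% and 58.5% of these UMIs. Cells with any Ccl1 UMI numbered 22 of 128 and 10 of 39, against 35 of 663 and 21 of 365, and after thinning 9.52% and 15.4%, against 3.45% and 4.94%. In T cells with UMIs of only 1 of Mki67 and Top2a its level was 456 and 687 CPM. Against T cells with neither, those cells had 39 of 2734 genes higher (1.43%) and 28 lower (1.02%), and Ccl1 had the largest mean ratio among the genes named there. Xcl1, which draws cross-presenting dendritic cells, had 227 and 352 CPM, against 124 and 193 CPM, with 38.4% and 42.7% of the UMIs from 1 cell. With all cells thinned and the rule applied anew, its mean log2 ratio turned to -0.83. In CD4 cells Ccl1 had 506 and 23.95 CPM when cycling, against 122 and 326 CPM, and Xcl1 had 290.04 and 38.3 CPM, against 154 and 116.5 CPM. In CD8 cells Ccl1 was called higher, at 182 and 261 CPM against 3.40 and 37.8 CPM. Xcl1 was called neither way there, at 182 and 429 CPM against 154 and 323 CPM.

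Some growth genes were higher, and fewer of them when depth-matched. Of 14 measured genes of ribosome biogenesis and translation, 8 were higher (6 when depth-matched), and of 10 glycolysis genes 6 were higher (3 when depth-matched). Of 15 oxidative phosphorylation genes 4 were higher, and 0 when depth-matched. Over all genes the shares were 16.3% and, depth-matched, 12.1%. Ran, the GTPase of nuclear transport and spindle assembly, had 860 and 971 CPM in cycling T cells, against 213 and 288 CPM in comparison T cells. Npm1, the nucleolar chaperone, had 2164 and 2453 CPM, against 1046 and 1193 CPM. Ldha, lactate dehydrogenase, had 603 and 673 CPM, against 283 and 304.7 CPM. Depth-matched cells had 377 and 425 CPM, below both cycling values. Of 20 measured cytoskeleton genes 7 were higher, 4 tubulins among them, and 1 was lower. Stmn1, which destabilizes microtubules, had 1038 and 866 CPM, against 29.4 and 36.7 CPM, while S100a6, a calcium-binding protein, had 257 and 226 CPM, against 667 and 681 CPM. Depth-matched cells had 1051 and 712 CPM of S100a6.

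Several immediate-early genes, which cells switch on within minutes of a stimulus and which tissue digestion can also raise, were lower in cycling T cells. Of 13 measured genes of the immediate-early and heat shock list, 6 were lower and 1 higher, and against depth-matched cells 9 of 15 were lower and 1 higher, beside 6.84% and 12.1% of all genes. Fos, a subunit of the AP-1 factor, had 80.5 and 79.1 CPM in cycling T cells, against 176 and 255 CPM in comparison T cells, and depth-matched cells had 264 and 508 CPM. Zfp36, which speeds the decay of cytokine transcripts, had 59.6 and 75.2 CPM, against 132 and 217 CPM, next to 208 and 603 CPM when depth-matched. A single cycling cell gave 33.0% and 28.9% of the Zfp36 UMIs. Fosb and Klf6 were called lower as well. Their mean log2 ratios turned positive when all cells were thinned and the rule applied anew. Hsp90aa1, a chaperone, was the gene that was higher, at 568 and 746 CPM against 228 and 280 CPM. In hashed sample 2, 1 cycling cell gave 27.3% of its UMIs. In the cells outside the T cell rule Fos stood at 722 and 734 CPM and Zfp36 at 448 and 542 CPM, above the full set of comparison T cells. Hsp90aa1 stood there at 180 and 226 CPM, below them. For Zfp36 the depth-matched cells of hashed sample 2, at 603 CPM, lay above the cells outside the rule, at 542 CPM. The part of transcripts from other cells in these differences was not tested. Of 5 measured naive and egress genes 3 were lower (Klf2, Il7r and Foxp1), and 1 was against depth-matched cells. Of 5 measured interferon-stimulated genes 1 was lower, and of 5 measured regulatory T cell genes none was called.

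**Figure D4:**
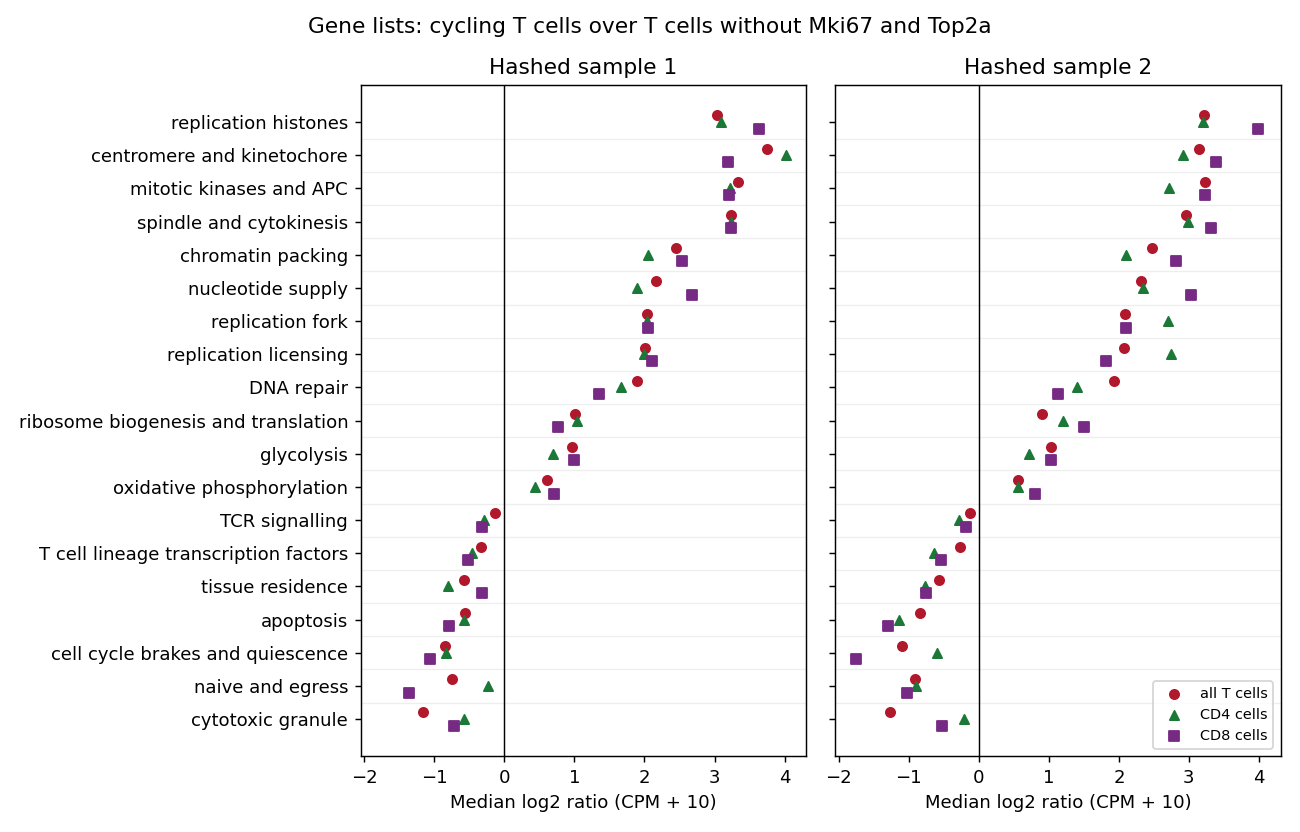
Median log2 ratio (CPM plus 10) of each gene list, cycling over comparison T cells, in hashed sample 1 (left) and 2 (right), for all T cells (circles), CD4 cells (triangles) and CD8 cells (squares). Cycle lists lie well right of 0 in all 3 (spindle and cytokinesis 3.24 and 2.95 over all T cells), TCR signalling lies near 0 (-0.13 and -0.13) and cytotoxic granule left of it.

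Of the macrophage markers 3 of 4 measured genes were lower in cycling T cells, and of the MHC class II genes 4 of 5, beside 9.08% of all genes. The 10 macrophage markers summed to 801 and 2099 CPM, against 2746 and 2580 CPM in comparison T cells and 39943 and 45209 CPM in cycling macrophages. In hashed sample 2, a single cycling cell gave 84.5% of the UMIs of Lyz2, the myeloid lysozyme. The 6 MHC class II genes summed to 1944 and 4749 CPM, against 5105 and 8266 CPM. Tubule markers summed to 27.2 and 168 CPM, against 204 and 160 CPM, and a single cycling cell of hashed sample 2 gave 91.5% of the Umod UMIs. Markers of B and plasma cells, of neutrophils and of erythroid and mast cells were at or near 0, at 8.87 and 7.91, 1.27 and 0, and 0 and 0 CPM. The part of these transcripts in the lower genes was not tested. With 3 and 3 cycling and 24 and 16 comparison cells of high macrophage or MHC class II content left out, a limit chosen after the data were seen, 503 genes were higher and 271 lower. Among the named genes reported here, 6 were lower in all T cells, in CD4 and in CD8 cells, and in each depth-matched comparison. These were Gpx3, known from tubule, Tyrobp, known from myeloid and NK cells, and Bcl2, Btg1, Ccl5 and S100a6. In the cells outside the T cell rule Bcl2 stood at 44.2 and 44.2 CPM and Ccl5 at 287 and 139 CPM, below comparison T cells, whereas S100a6 stood at 1063 and 957 CPM, above them.

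By Cd4 and Cd8 UMIs, the class was mixed. Of cycling T cells, 51.6% (42.6 to 60.5) and 43.6% (27.8 to 60.4) had a Cd4 UMI and no Cd8a or Cd8b1 UMI, against 25.3% and 21.6% of comparison T cells. CD8 cells, with Cd8a or Cd8b1 and no Cd4 UMI, made up 18.0% (11.7 to 25.7) and 23.1% (11.1 to 39.3), against 35.3% and 38.6%. Both were seen in 3.13% and 5.13%, against 1.51% and 0.548%, and neither in 27.3% and 28.2%, against 37.9% and 39.2%. At 2000 UMIs, CD4 cells were 22.2% and 12.8% of cycling T cells, against 15.1% and 14.5% of comparison T cells, so their order turned in hashed sample 2, where the wider interval of the cycling cells covers the other share, while CD8 cells were 14.3% and 17.9%, against 33.3% and 34.3%. In these thinned cells 63.5% and 66.7% of cycling T cells had neither, against 50.7% and 50.9%. Cd4 messenger RNA is scarce, so a cell without a Cd4 UMI may still be a CD4 cell. In macrophages, which should lack the T cell lineage genes at this level, 1.03% and 0.585% had a Cd4 UMI and 0.734% and 0.244% a Cd8b1 UMI, and in cycling macrophages, at about the depth of cycling T cells, it was 0 of 32 and 0 of 133 for Cd4, for Cd8a and for Cd8b1.

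**Figure D5:**
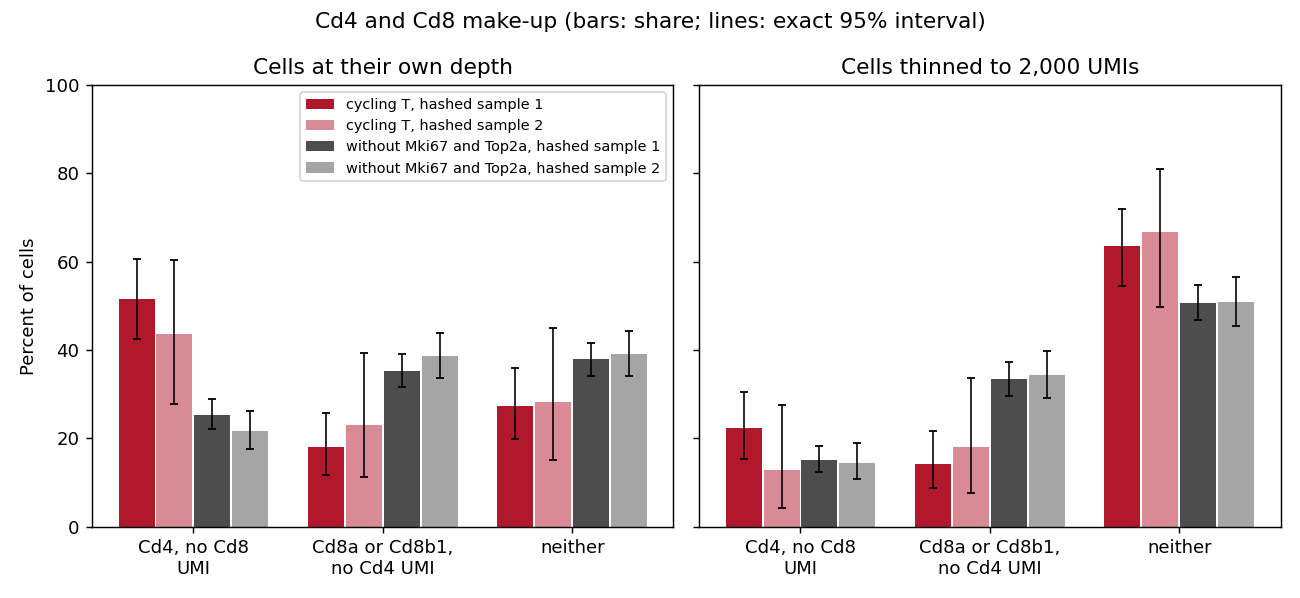
Percent of cells (vertical axis) with Cd4, with Cd8a or Cd8b1, or with neither, in cycling T cells (red) and comparison T cells (grey) of hashed sample 1 (dark) and 2 (pale), at their own depth (left) and thinned to 2000 UMIs (right); lines are exact 95% intervals. CD8 cells are a smaller part of cycling than of comparison T cells on both sides, while CD4 cells are a larger part in both hashed samples only at their own depth.

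Read as shares of each lineage, 21.9% (66 of 301) and 13.9% (17 of 122) of CD4 cells were cycling, and 7.88% (23 of 292) and 5.20% (9 of 173) of CD8 cells. Thinning with the rule applied anew gave 11.5% and 4.41% of CD4 and 3.88% and 1.59% of CD8 cells. Among comparison T cells the median was 4250.5 and 3328 UMIs in CD4 cells, and 3304 and 3428 UMIs in CD8 cells. Cells of like UMI content were also compared. Between 2000 and 4000 UMIs, 2 of 92 and 2 of 61 CD4 cells were cycling, and 2 of 168 and 0 of 99 CD8 cells. Between 4000 and 8000 UMIs it was 9.52% (12 of 126) and 6.06% (2 of 33) of CD4 cells, and 5.95% (5 of 84) and 4.17% (2 of 48) of CD8 cells. Between 8000 and 16000 UMIs it was 58.9% (33 of 56) and 58.8% (10 of 17) of CD4 cells, and 61.1% (11 of 18) and 5 of 10 of CD8 cells. At 16000 UMIs or more, 19 of 22 and 3 of 3 CD4 cells were cycling, and 5 of 7 and 2 of 2 CD8 cells. The CD4 share was thus the higher in both hashed samples in the ranges from 2000 to 8000 UMIs, and in hashed sample 2 but not 1 between 8000 and 16000. In each range the exact intervals of the lineages overlapped. Foxp3, the factor of regulatory T cells, had a UMI in 11 of 128 and 5 of 39 cycling T cells, against 40 of 663 and 12 of 365 comparison T cells, or 3.97% and 5.13% against 3.12% and 1.85% after thinning, and in 0.0824% and 0.108% of thinned macrophages.

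Within CD4 cells 409 of 2907 genes (14.1%) were higher and 230 (7.91%) lower, and within CD8 cells 619 of 2954 (21%) were higher and 347 (11.7%) lower. Against depth-matched cells of the same lineage, 320 of 2843 genes (11.3%) were higher and 110 (3.87%) lower in CD4 cells, and 469 of 2945 (15.9%) were higher and 254 (8.62%) lower in CD8 cells. These depth-matched sets were small. They held 36 and 17 CD4 cells (median 7410.5 and 5388 UMIs) and 21 and 9 CD8 cells (7210 and 7579 UMIs). Cycling T cells as a whole had a median of 11235.5 and 11049 UMIs. With TMM scaling, which sets the bulk of genes level, the CD8 split against all comparison CD8 cells was 466 higher and 426 lower, since the factors shifted all log2 ratios by 0.08 and 0.18. The 310 genes higher in both lineages were 75.8% of the CD4 and 50.1% of the CD8 list. The 122 lower in both were 53.04% and 35.2%, and 0 genes were higher in 1 lineage and lower in the other. By list, 12 of 12 spindle genes were higher in CD4 cells and 11 of 11 in CD8 cells, and 11 of 12 and 11 of 11 histones. With 23 and 9 cycling CD8 cells, single genes of that lineage rest on few cells.

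Bcl2 and Ccl5 were lower in each lineage. In CD4 cells Bcl2 had 34.9 and 52.7 CPM when cycling, against 208 and 379 CPM, next to 69.7 and 212 CPM when depth-matched. In CD8 cells it had 53.8 and 67.3 CPM, against 583 and 715 CPM, next to 323 and 472 CPM when depth-matched. Every cycling value lay below every depth-matched one of the same lineage. Ccl5 had 542 and 474 CPM in cycling CD4 cells, against 2634 and 1994 CPM, next to 910 and 1071 CPM when depth-matched. In CD8 cells it had 895 and 816 CPM, against 6755 and 6946 CPM, next to 3100 and 3110 CPM when depth-matched. The share of CD8 cells with a Ccl5 UMI was 23 of 23 and 8 of 9 when cycling, against 223 of 234 and 133 of 141. After thinning it was 73.9% and 22.2%, against 209 of 220 cells and 95.3%.

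Among CD4 cells Foxp3 had 8.99 and 28.7 CPM when cycling, against 55.6 and 53.3 CPM, from 8 and 6 UMIs in the cycling cells, and Ikzf2, the Helios factor, had 40.5 and 67.1 CPM, against 125 and 143 CPM. Both were called lower, and neither was against depth-matched cells, where Foxp3 had 33.2 and 88.5 CPM and Ikzf2 59.8 and 177 CPM. Among CD8 cells Gzmk, a granzyme of memory-like effector cells, had 199 and 109 CPM when cycling, against 105 and 116 CPM, with a UMI in 16 of 23 and 6 of 9 cells, against 63 of 234 and 40 of 141. After thinning these shares were 30.4% and 33.3%, against 16.8% and 15.0%. Gzmk was called neither way against all comparison CD8 cells and higher against the 21 and 9 depth-matched ones, which had 83.8 and 39.4 CPM. Gzmb, a cytolytic granzyme, had 63.9 and 75.7 CPM, against 112 and 143 CPM, and was called lower, while depth-matched cells had 168 and 13.1 CPM. In hashed sample 2, 1 cell gave all 9 Gzmb UMIs of the 39 cycling T cells, so the value of 75.7 CPM rests on that cell. Klf2 was called lower in CD8 cells at 16.8 and 25.2 CPM, against 172 and 229 CPM, next to 53.9 and 171 CPM when depth-matched. In CD4 cells Klf2 had 60.7 and 47.9 CPM, against 72.9 and 160 CPM. Whether any gene's ratio differed between the lineages was not tested.

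Cycling T cells were last set against cycling macrophages of the same library. Of 3183 measured genes, 517 (16.2%) were higher and 606 (19%) lower in cycling T cells. Most cycle genes were called neither way. Higher were 2 of 8 licensing, 2 of 10 fork, 2 of 10 mitotic kinase, 1 of 9 kinetochore and 1 of 11 histone genes. Of 14 spindle genes 0 were higher and 1 was lower. Other lists had more calls: 3 of 9 nucleotide supply genes and 4 of 14 chromatin packing genes were higher. Of 9 cyclins and CDKs, 4 were higher and 1 lower. Median log2 ratios were 0.81 and 0.52 for licensing, 0.92 and 0.32 for the fork, 0.68 and 0.06 for the spindle, and 1.83 and -0.17 for histones. Cdk1 had 175 and 164 CPM in cycling T cells, against 135 and 177 CPM in cycling macrophages, and Pcna 260 and 267 CPM, against 189 and 284 CPM. For both genes the values of the cell types overlapped. The D-type cyclins were called, in opposite directions. Ccnd2 had 174 and 283 CPM, against 35.5 and 73.7 CPM, and Ccnd3 107 and 123 CPM, against 52.0 and 55.9 CPM. Ccnd1 had 5.07 and 25.7 CPM in cycling T cells, against 163 and 237 CPM in cycling macrophages. Cdkn1a, the inhibitor p21, was likewise lower in cycling T cells, at 41.8 and 69.2 CPM against 331 and 286 CPM. Hmgb2 had 3068 and 2746 CPM, against 925 and 1198 CPM, and Dut, which removes dUTP, had 530 and 590 CPM, against 128 and 176 CPM. Of 14 TCR signalling genes, 14 were higher, and of 10 macrophage and 6 MHC class II markers all were lower; the Cd3 and C1qa limits that define the classes set part of this. Among genes outside the lists, Ptprcap, a partner of CD45, had 601 and 631 CPM, against 4.73 and 3.07 CPM, and Pf4, a chemokine of resident macrophages, had 9.50 and 11.9 CPM, against 679 and 1266 CPM.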

How the data were processed

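The 3' single-cell libraries were aligned to mm10 per the submitters' processing notes, which name Cell Ranger 6.0 and Seurat 4.3.0, while the deposited file headers name Cell Ranger 6.1.1. The deposited values are raw UMI counts per gene and cell, filtered and split by hashtag by the authors. The matrices of hashed samples 1 and 2 hold 20743037 and 25314154 gene UMIs. Cells were kept as stated in the report. UMIs were summed per class and scaled to CPM, with ratios after adding 10 CPM. Intervals are exact (Clopper-Pearson for shares, conditional binomial for ratios). There are no labelled replicate animals, so no test was run. The scripts were tested on simulated data. Thinning drew 2000 UMIs per cell without replacement (seed 7) and left out shallower cells. Doublets were kept: Scrublet, run in Scanpy 1.11.5, marked 23 and 11 cells, 1 and 1 of them cycling T cells, and a top hashtag under 2 times the next marked 0 and 6, none cycling. Python 3.11.15, numpy 2.4.6, pandas 2.3.3, SciPy 1.17.1 and matplotlib 3.10.9 were used.

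The members of the class, the gene lists and the comparisons were chosen with earlier results of these data known. Genes were named if they belonged to 1 of 43 lists, or were among the 12 with the largest or smallest mean ratio in a comparison, leaving out those used by the rule and mitochondrial, ribosomal, immunoglobulin, receptor and unnamed genes. A few genes that meet this rule are not reported here. Ccl5, Bcl2 and other list members were taken as the textbook anchors or largest ratios of their list. The Visium section was not used, since its files at hand give spot positions. Alternatives were other limits of the rule, depth, scaling, pseudocount, minimum level and fold, doublet removal and each hashed sample alone.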

Additional observations from a re-analysis of the deposited data

Results flagged for a closer look

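A further hashtag, the mark of neither hashed sample, had 265 UMIs over the 3115 kept cells of hashed sample 1 and 9 over the 3486 of hashed sample 2. It was flagged as a signal outside the measurements used. The largest count in 1 cell was 2 in hashed sample 1 and 1 in hashed sample 2, while the median count of a cell's own hashtag was 1681 and 1271.5.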

How the results depend on the processing

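For all T cells, 440 to 541 genes were higher and 195 to 314 lower under other limits on Mki67, Top2a, Cd3, C1qa and mitochondrial UMIs, doublet removal, thinning, make-up weighting, TMM scaling and 1 CPM in place of 10, against 483 and 269. Similar counts need not be the same genes. Thinning gave 440 higher and 195 lower, and these held 260 of the 483 and 96 of the 269. Depth matching gave 350 and 197, and no gene called one way was called the other way in any of these. A minimum of 20 CPM gave 690 higher and 467 lower, no minimum 798 and 657, and 2-fold 221 and 84. Leave-one-out, with 1 hashed sample alone, ranged over 653 to 746 higher and 406 to 484 lower. TMM gave 466 and 191 in CD4 cells. Depth matching in CD4 cells, chosen after seeing the data as were the receptor UMI, high-marker and CD8 depth alternatives, gave 320 and 110. The cycling share with 2 UMIs of both genes was 10.9% and 5.82%, and thinned 8.27% and 3.92%. Many ratios of named genes moved with depth. Thinning moved 190 mean log2 ratios by at least the standard deviation between the hashed samples, and 103 stayed within it. Depth matching moved 487 over all T cells, CD4 and CD8 cells, and 376 stayed within it. Both leave out the sign changes of called genes. Called genes whose mean log2 ratio changed sign on thinning (66 and 15 cycling cells) were Fosb (0.26), Klf6 (0.15), Pgam1 (-0.64), Tfdp1 (-0.32) and Xcl1 (-0.83). On depth matching they were Cd27 (0.10), Cxcr6 (0.15), Fasl (0.12), Lck (0.14) and Nkg7 (0.20), and in CD8 cells Atp5a1 (-0.067), C1qc (0.14), Gzmb (0.31), Junb (0.056), Rora (0.44) and Sdhb (-0.037); the cause was not tested. No paired analysis was possible because the labels give no replicate numbers within the single-cell sample. Depth limits rare genes: with 39 cycling cells in hashed sample 2, a gene seen in none could be in several.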
